A study of Homo sapiens with 18 samples.

Results

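The regions described here are those that a table of methylated DNA counts lists on contigs of the human reference that have no place in the chromosome sequences. They were chosen by their sequence name alone, which contains "_" or starts with chrUn. There were 586 such regions among 198884 in the table, on 44 contigs, and together they covered 387715 bp of listed region. Of these, 228 lay on 14 placed random contigs, which are assigned to a chromosome but not to a position in it, and 358 on 30 unplaced contigs, which are assigned to no chromosome. No listed region and no deposited peak lay on a haplotype contig (0 of each), so the label's mention of haplotypes has no counterpart in these values. For comparison, chromosomes 1 to 22 carried 191688 regions over 77574154 bp.

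The counts came from MeDIP-seq, in which sheared DNA is captured with an antibody against 5-methylcytosine and sequenced. The cells were K562, an established human leukaemia line, carrying a B2M:tdTomato transgene, named for the gene of the MHC class I light chain and for a red fluorescent protein. All 9 MeDIP libraries came from such cells: 3 from untreated cells, 3 from cells silenced with TALE and 3 from cells silenced with dCas9, both programmable DNA-binding proteins. Per the labels, treated cells received a mixture of 3 plasmids, each for a different repressor, and the dCas9 cells a guide RNA plasmid as well. The labels give neither the time after treatment nor whether the replicates were separate cultures, so p-values measure the spread between these libraries, which may be technical.

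Contigs of this kind hold sequence that resisted assembly, much of it repeated. The arrays of ribosomal DNA code for the 18S, 5.8S and 28S RNAs of the ribosome, and each unit is followed by a long intergenic spacer. In many human cells a share of the units is kept silent with methylated CpG. Centromeric alpha satellite, which carries the CENP-B box bound by the protein CENP-B, and satellites built of GGAAT units are further repeats that are commonly methylated. A short read from a sequence with several equal copies cannot be assigned to a single copy, and processing that drops such reads leaves those copies without counts.

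The labels were checked at the target. RNA counts of the B2M entry were 48 to 79 in untreated libraries, 3 to 7 in TALE and 2 to 3 in dCas9 libraries. The only listed MeDIP region at the B2M promoter (chromosome 15, 45003405 to 45003721, hg19) had 0, 0 and 0 counts in untreated, 7, 10 and 9 in TALE and 14, 13 and 16 in dCas9 replicates. The K562 markers were high in the RNA libraries, for example HBG2 at a median of 3879 CPM and GATA1 at 104.8 CPM, while CD3E, CD14 and MS4A1 were at or below 0.585 CPM and LYZ at 15.5 to 26.3 CPM. Total MeDIP counts ran from 2529729 to 4492751 per library, and counts on the contigs from 27289 to 46807.

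The stretches of the contigs that carry the results are printed here, 5′ to 3′ on the plus strand of GRCh37 (hg19). The first pair is from chrUn_gl000220, the contig with most counts: the stretch richest in CpG within the part of its largest region that has no copy on the contig, and a short region with a peak in every library and no count. In both, capitals mark CpG.
chrUn_gl000220:118413-118562: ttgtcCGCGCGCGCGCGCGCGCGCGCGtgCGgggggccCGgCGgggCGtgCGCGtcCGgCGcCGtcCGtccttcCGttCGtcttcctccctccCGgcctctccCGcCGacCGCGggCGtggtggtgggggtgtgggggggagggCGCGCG
chrUn_gl000220:113537-113584: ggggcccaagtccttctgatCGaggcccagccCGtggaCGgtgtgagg

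The next pair is from chr4_gl000193_random and chrUn_gl000219, which followed in counts, again with CpG in capitals. The third line is the single listed region of chr21_gl000210_random, which has a count density above that of the chromosomes and no CpG to mark.
chr4_gl000193_random:91314-91463: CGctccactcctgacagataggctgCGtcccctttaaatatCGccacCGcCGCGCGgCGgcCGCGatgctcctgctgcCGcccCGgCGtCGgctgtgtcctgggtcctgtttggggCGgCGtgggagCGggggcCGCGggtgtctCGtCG
chrUn_gl000219:50837-50986: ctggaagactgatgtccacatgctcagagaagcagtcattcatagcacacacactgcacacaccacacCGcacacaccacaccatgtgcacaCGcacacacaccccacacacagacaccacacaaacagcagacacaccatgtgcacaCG
chr21_gl000210_random:27368-27610: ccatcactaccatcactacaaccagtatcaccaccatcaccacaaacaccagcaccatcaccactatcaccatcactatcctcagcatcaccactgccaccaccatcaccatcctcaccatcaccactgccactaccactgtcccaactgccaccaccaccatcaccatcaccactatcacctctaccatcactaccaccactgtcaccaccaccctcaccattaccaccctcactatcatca

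The last pair shows satellite sequence. Capitals mark units of ATTCC, the reverse complement of GGAAT, in chrUn_gl000216, and a CENP-B box in chr9_gl000199_random, which reads in the opposite direction there.
chrUn_gl000216:75902-76001: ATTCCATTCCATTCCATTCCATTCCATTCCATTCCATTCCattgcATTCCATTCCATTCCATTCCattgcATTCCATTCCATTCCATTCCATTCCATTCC
chr9_gl000199_random:77145-77314: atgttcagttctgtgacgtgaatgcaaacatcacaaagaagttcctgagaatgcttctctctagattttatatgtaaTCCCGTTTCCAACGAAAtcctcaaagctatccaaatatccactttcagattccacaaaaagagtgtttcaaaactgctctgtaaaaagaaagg

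The contigs held 318073 of 30234942 counts over the 9 libraries, between 1.04% and 1.08% of each library. Of these counts, 62.5% were on chrUn_gl000220 alone, a contig of 161802 bp that carries ribosomal DNA. A further 10.8% were on chr4_gl000193_random, 4.43% on chrUn_gl000219, 4.29% on chrUn_gl000214 and 4.24% on chr7_gl000195_random. The next by counts were chr4_gl000194_random with 2.68%, chrUn_gl000216 with 1.75%, chrUn_gl000218 with 1.61%, chr17_gl000205_random with 1.40% and chrUn_gl000224 with 0.883%. At the other end, 4 contigs had under 10 counts in all, and 2 of these, chr11_gl000202_random and chrUn_gl000222, had 0.

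Count density, the CPM (counts scaled to the size of the library) per kb of listed region, was used to compare sequences of different length. It was 31.7 ± 0.452 (SD, n = 9) on the contigs and 14.6 ± 0.0454 (SD, n = 9) on chromosomes 1 to 22. The ratio ran from 2.13 to 2.22 over the libraries, above 1 in 9 of 9, with an exact two-sided sign-flip permutation p of 0.00391, the smallest that 9 libraries allow. Without chrUn_gl000220 the density was 13.3 ± 0.0858 (SD, n = 9) and the ratio 0.911, below 1 in all 9 libraries with the same exact permutation p. That contig was left out because it had the most counts, and nothing was left out of chromosomes 1 to 22. This p therefore does not test for a deficit of the other contigs. The excess of the contigs thus came with 1 contig of 44. The median over single regions was lower still on the contigs, at 4.16 CPM per kb against 14.1 on chromosomes 1 to 22. Counts do not separate the number of copies in the K562 genome from the methylation of each copy, and libraries made without capture were not analysed here.

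The same held within both kinds of contig. Placed random contigs had 19.1 ± 0.147 CPM per kb (SD, n = 9), a ratio of 1.31 to the chromosomes (exact sign-flip permutation p 0.00391), and 0.741 without chr4_gl000193_random. Unplaced contigs had 38.6 ± 0.70 CPM per kb (SD, n = 9), a ratio of 2.63 (exact sign-flip permutation p 0.00391), and 0.654 without chrUn_gl000220. Adjustment over these 3 ratios leaves each exact permutation p at 0.00391. The choice of regions also mattered. Regions in which under 50% of the 31-base words occur more than once in the reference were an alternative added after seeing the data. Over these regions the ratio was 5.57 for all contigs and stayed above 1, at 1.43, without chrUn_gl000220.

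**Figure D1:**
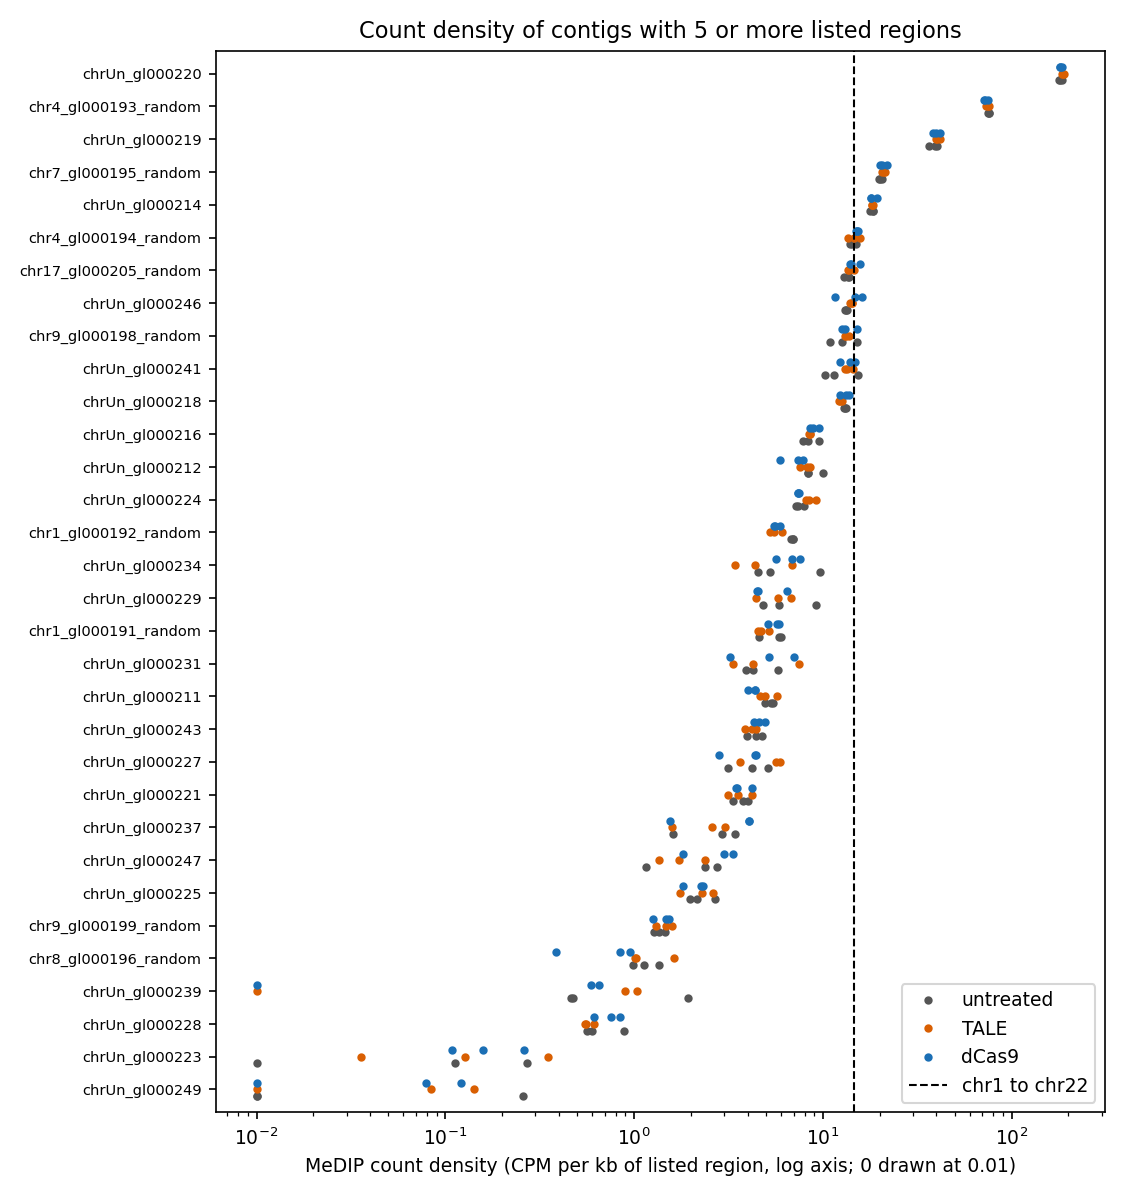
MeDIP count density (CPM per kb of listed region, log axis) of the 32 contigs with 5 or more listed regions. Each point is 1 library, coloured by group, and the dashed line is the density of chromosomes 1 to 22 at 14.6 CPM per kb. chrUn_gl000220 lies highest at 178 to 190 CPM per kb, and the lowest contigs lie below 1 CPM per kb.

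Single contigs spread widely. Of 44, 8 had a density above that of chromosomes 1 to 22 and 36 were below it. Among the contigs with 5 or more regions the highest were chrUn_gl000220 with 184 ± 4.00 CPM per kb, chr4_gl000193_random with 74.5 ± 1.74 and chrUn_gl000219 with 39.8 ± 1.60 (SD, n = 9 each), and their library values did not overlap one another. The next, chr7_gl000195_random at 20.7 ± 0.658 and chrUn_gl000214 at 18.3 ± 0.451 (SD, n = 9), were also separate from each other. chr4_gl000194_random, at 14.8 ± 0.720 (SD, n = 9), lay within its spread of the chromosomes. The lowest were chrUn_gl000249 at 0.0760 ± 0.0888, chrUn_gl000223 at 0.158 ± 0.115 and chrUn_gl000228 at 0.665 ± 0.130 CPM per kb (SD, n = 9), of which the former pair overlapped.

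Ribosomal DNA on chrUn_gl000220 was the strongest signal. Its 10 listed regions covered 41883 bp, or 25.9% of the contig, with 5.83 CpG per 100 bp against 2.74 over the regions of chromosomes 1 to 22. Copies of the 5.8S RNA gene were found from 112025 to 112173 and from 155997 to 156145, 43972 bases apart, by a match of 94.6% identity to an annotated 5.8S pseudogene. The microRNA gene MIR3648, which lies in the ribosomal transcript, matched at 107910 to 108088 and again at 151882 to 152060. The stretch between such copies is 1 repeat unit with its spacer.

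Most counts of this contig were in regions between the 2 copies of 5.8S. The region from 114795 to 134093, which starts 2.77 kb after the first 5.8S match and runs to 22.1 kb, is at 19299 bp the longest of the whole table. It had 5086, 5035 and 5146 CPM in untreated replicates 1, 2 and 3, 5321, 5275 and 5247 CPM in TALE and 5033, 5044 and 5171 CPM in dCas9 replicates. Its mean of 5151 CPM was the highest of any listed region, and 0 regions of the table exceeded it. The CpG-rich stretch printed above, with 32 CpG in 150 bases, lies inside it, in the part that has no copy on the contig.

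A region in the spacer, from 142470 to 148483, had the highest density of all contig regions, 299 CPM per kb. Its CPM values were 1635, 1840 and 1770 in untreated, 1882, 1878 and 1828 in TALE and 1771, 1779 and 1820 in dCas9 replicates, and untreated replicate 1 lay lowest. Between that region and the largest one, the region from 135547 to 139419 had 127 CPM per kb with a lower CpG content of 2.94 per 100 bp. Further counted regions lay outside the stretch between the 5.8S matches. Those from 100225 to 104508, 6651 to 7184 and 95350 to 96341 had 36.8, 99.6 and 39.3 CPM per kb. Moved on by the 43972 bases between the 5.8S matches, the region from 100225 to 104508 falls inside that from 142470 to 148483. Of their words, 68.4% and 61.4% were repeated. Their 36.8 and 299 CPM per kb may thus belong to copies of the same sequence, which was not tested. All 6 counted regions of the contig were above the 14.6 CPM per kb of the chromosomes.

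The other 4 regions of chrUn_gl000220 had 0 counts in each of the 9 libraries, although a peak of each library overlapped them. They ran from 109062 to 111008, just before the first 5.8S match, from 113537 to 113584 just after it, from 153038 to 154980 and from 158768 to 161716. In these positions the 18S and 28S genes are known to lie, on either side of 5.8S. The highest fold enrichment that the authors' lists give for their peaks was 15.4, 13.1, 6.68 and 6.00 in that order. Their CpG content was 8.63, 6.25, 8.54 and 11.7 per 100 bp, higher than in any counted region of the contig, and all of their 31-base words (100%) occurred again in the reference, with a median of 2 copies. The first and the third start 43976 bases apart, and the fourth starts 43973 bases after the largest region, the spacing of the 5.8S matches to within 4 bases. The table gives 1 count per region, and where the counts of the largest region lie inside it cannot be read from it: its first 3036 bases also have a copy on the contig.

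On chr4_gl000193_random 1 region held nearly all counts. It runs from 77434 to 92166, had 33197 of the contig's 34241 counts and 87.1 CPM per kb, with 5.60 CpG per 100 bp. Its CPM values were 1303, 1301 and 1311 in untreated, 1262, 1311 and 1299 in TALE and 1283, 1238 and 1237 in dCas9 replicates. Of its 31-base words 51.0% recurred within the region, most often 1409 bases apart, as in a tandem repeat. Promoter sequences of LINC01667, a long noncoding RNA gene, matched in it at 3 places by 95.3% or more identity, credited to RefSeq (GRCh38.p14). The printed stretch from its end has 21 CpG in 150 bases.

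High density also occurred with few CpG. On chrUn_gl000219, the region from 50728 to 51759 had 299 CPM per kb, as high as the densest ribosomal spacer region, with 1.16 CpG per 100 bp against a median of 2.81 for regions of chromosomes 1 to 22. It had 307, 324 and 288 CPM in untreated, 293, 298 and 332 in TALE and 296, 324 and 318 in dCas9 replicates, and only 4.79% of its words were repeated. It held 8021 of the contig's 14106 counts. CA or TG dinucleotides, whichever of the pair was more frequent, made up 53.3% of its bases, where the median contig region had 16.7%. The printed stretch of it shows runs of ca with 3 CpG.

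The region of chr21_gl000210_random, printed in full above, holds 0 CpG and had 188 counts and 29.3 ± 16.8 CPM per kb (SD, n = 9). CA dinucleotides made up 48.6% of its 243 bases. Its library values ran from 9.69 to 62.9 CPM per kb, a coefficient of variation of 57.2% where counting error alone gives 26.7%. In all, 33 of the 586 contig regions (5.63%) held no CpG, against 2.01% on chromosomes 1 to 22, and 23 of these 33 had counts. Their median density was 3.45 CPM per kb, with a highest value of 57.1. Some of the 33 were very short, for example 5 and 8 bp on chr9_gl000199_random. A region of 16 bp on chrUn_gl000211 had 17 counts and 43.2 CPM per kb. Reads counted in such short regions may hold CpG outside them.

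On the remaining contigs with many counts the leading region held fewer counts than that of chrUn_gl000219. chr7_gl000195_random had 38 regions, of which that from 81029 to 83419 held 2498 of 13492 counts at 40.2 CPM per kb. chrUn_gl000214 had 20 regions, the largest from 123303 to 137549 with 14.5 CPM per kb, and the densest of its large ones from 64116 to 65911 with 70.3 CPM per kb, in which words recurred at a spacing of 64 bases. chr4_gl000194_random and chrUn_gl000218 both matched transcripts of TEKT4P2, a pseudogene of the tektin gene TEKT4, and in the former the region from 67160 to 74466 had 13.2 CPM per kb. On chr17_gl000205_random the region from 109859 to 112491 held 2466 of 4439 counts at 36.5 CPM per kb, with 7.38% repeated words.

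The gene annotation used here (GENCODE 44 on GRCh37) lists no gene on these contigs, so genes were placed on them by matching annotated transcripts and promoters. This gave 193 genes on 29 contigs. Of 115 promoter sites matched on 23 contigs, 21 lay over a listed region and 16 over a region with counts. chr17_gl000204_random, which matched RBFOX3, a neuronal splicing factor gene, had 1 region (66011 to 66381) with 26.2 ± 7.80 CPM per kb (SD, n = 9), a peak in all 9 libraries and 0% repeated words. chr1_gl000191_random matched SRSF10 and PNRC2, and chrUn_gl000212 matched promoters of the FAM230 family over a region with 387 counts.

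Contigs rich in satellite sequence had a density below that of chromosomes 1 to 22 as a whole, though not in each region. chrUn_gl000216, in which GGAAT units made up 34.3% of the listed bases, had 28 regions and 8.71 ± 0.565 CPM per kb (SD, n = 9). Its region from 80444 to 80960 held 1144 of its 5566 counts at 86.9 CPM per kb, and the region of the stretch printed above (75588 to 76259) had 20.02 CPM per kb, both above the chromosomes. chr9_gl000199_random had 56 regions, the most of any contig, with 65 CENP-B boxes on either strand, and 1.41 ± 0.118 CPM per kb (SD, n = 9), and 23 of its 56 regions had 0 counts. chrUn_gl000226 was covered over 93.2% of its 15008 bp by 1 region with 41 boxes and 1.81 ± 0.334 CPM per kb (SD, n = 9), and its words recurred most often 1364 bases apart. Both satellites were more frequent in the contig regions than elsewhere. GGAAT runs were in 5.29% of contig regions and 0.165% of those on chromosomes 1 to 22, and CENP-B boxes in 6.31% and 0.0636%. These shares came from few contigs. GGAAT runs were found only on chrUn_gl000216 and chrUn_gl000225, and 65 and 41 of the 107 boxes were on chr9_gl000199_random and chrUn_gl000226.

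Repeats and zero counts went together. Over the contigs, 124 of 586 regions (21.2%) had 0 counts in all 9 libraries, against 2231 of 191688 (1.16%) on chromosomes 1 to 22. A count of 0 over the 9 libraries allows up to 3 counts, or 0.116 CPM, by counting error alone. Of the 124, 114 consisted of repeated words only, 3 held 80 to under 100% of them and 7 were shorter than a word. Each of the 124 was overlapped by a peak of at least 1 library, which held for every region of the table (0 without a peak). Of the 124, 30 were overlapped by a peak of all 9, and 5 by peaks of all 9 with a −log10 q of 2 or more. The median highest fold of their peaks was 3.58, against 4.93 for contig regions with counts. How the authors treated reads with several matches is not given in the sources used here, and its part in the zero counts was not tested.

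The contigs had more repeated sequence, with a median of 89.5% repeated words per region against 54.6% on chromosomes 1 to 22. Among regions made of repeated words only, 114 of 208 on the contigs had 0 counts (54.8%, 95% exact interval 47.8% to 61.7%), against 22.7% (21.9% to 23.6%) on the chromosomes. Among those with 80 to under 100% repeated words it was 3 of 131 (2.29%, 0.475% to 6.55%) against 0.428% (0.358% to 0.508%). In the 4 bins below 80%, 0 of 42, 55, 53 and 80 contig regions were at 0, which allows shares of up to 8.41%, 6.49%, 6.72% and 4.51% (exact 95% limits). The intervals cover counting of regions only, and 17 regions shorter than a word had no value. Between 20% and 80% repeated words the median density was 7.83 to 9.58 CPM per kb on the contigs and 11.5 to 16.8 on the chromosomes, and at 0 to 20% it was 12.7 and 11.2.

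**Figure D2:**
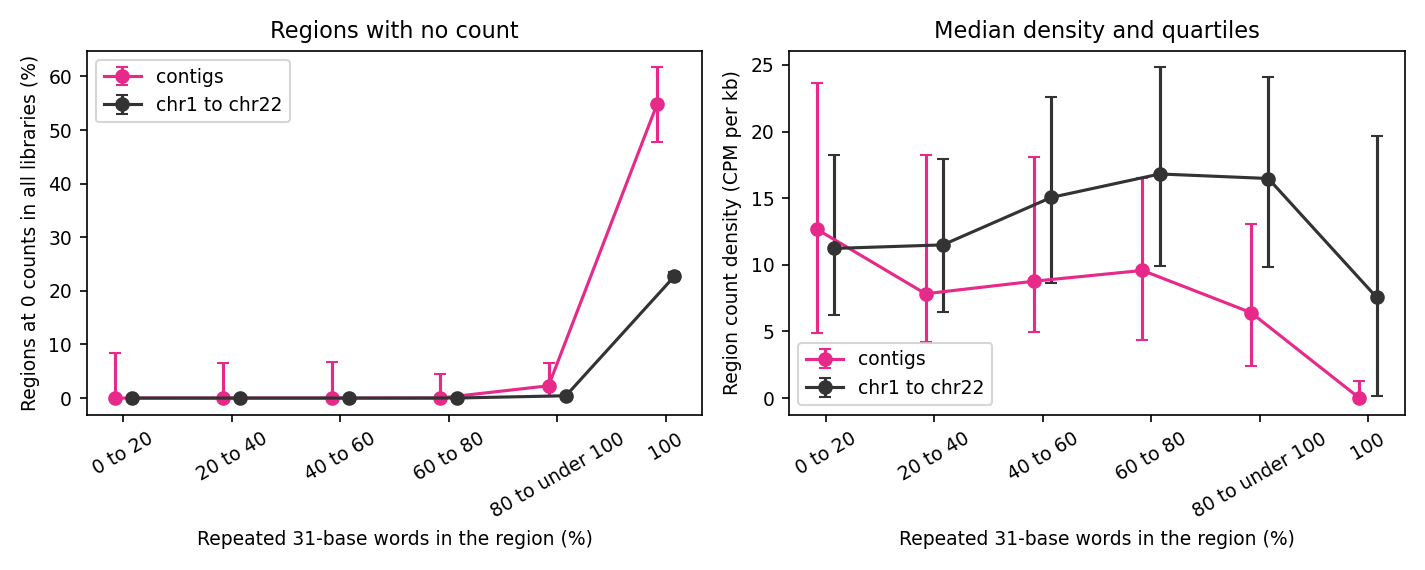
Regions binned by the share of repeated 31-base words (%), for the contigs and for chromosomes 1 to 22. The left panel gives the share of regions with 0 counts in all 9 libraries (%, bars are 95% exact intervals), highest at 54.8% on the contigs where all words repeat, and the right panel gives the median count density (CPM per kb, bars are quartiles).

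Some contigs with many uncounted regions matched gene families. On chrUn_gl000223, which matched the zinc finger genes ZNF140, ZNF84, ZNF26 and ZNF605, 26 of 29 regions had 0 counts and 99.8% of words were repeated, yet 10 regions had a peak in all 9 libraries. On chrUn_gl000228, which matched DUX4, a transcription factor gene of a subtelomeric array, and genes of the FRG2 family, 9 of 13 regions had 0 counts, although the contig had the highest CpG content of all, 8.41 per 100 bp. A matched DUX4 promoter (72683 to 72982) lay over such a region. On chrUn_gl000222, which matched DUX4L26 and FRG2 genes, both regions had 0 counts and a peak in all 9 libraries. Counts of these families are uncertain, since where copies are alike, reads from those on the chromosomes may fall on the contigs and the reverse.

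The deposited peak lists, called per library, held 273 to 334 peaks on the contigs, or 0.277% to 0.316% of each list. The median fold enrichment was 2.94 to 3.37 for peaks on the contigs and 2.38 to 2.43 for all other peaks, as the authors' lists give them, higher on the contigs in every list. A peak in all 9 libraries overlapped 198 of 586 contig regions (33.8%, 95% exact interval 29.96% to 37.8%) and 24.8% of regions on chromosomes 1 to 22. With peaks of a −log10 q of at least 2 only, these shares were 13.7% and 0.422%.

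Silenced and untreated cells were compared to ask whether the treatments moved the methylation signal of these repeats along with that of the target. The share of counts on the contigs was 1.04% ± 0.00718 in untreated, 1.07% ± 0.00997 in TALE and 1.04% ± 0.00477 in dCas9 libraries (SD, n = 3 each). All 3 TALE values, 1.060, 1.076 and 1.079%, were above the 3 untreated values, of which the highest was 1.050%. The log2 difference was 0.039 (exact permutation p 0.1, two-sided, the smallest that 3 against 3 allows), a share 1.03 times as high. TALE was above dCas9 by 0.036 (exact permutation p 0.1), dCas9 and untreated differed by 0.0022 (exact permutation p 0.9), and all 6 silenced libraries against untreated gave 0.020 (exact permutation p 0.214). Adjusted over the 4 tests, these p-values were 0.2, 0.2, 0.9 and 0.286 (exact permutation, Benjamini-Hochberg).

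Most of the TALE difference in share was on chrUn_gl000220. Its share was 0.649% ± 0.00929 in untreated, 0.675% ± 0.00990 in TALE and 0.651% ± 0.00699 in dCas9 libraries (SD, n = 3). The other 43 contigs together had 0.394% ± 0.00253, 0.397% ± 0.000661 and 0.394% ± 0.00334 (SD, n = 3). Without chrUn_gl000220 the log2 difference in share was 0.010 for TALE against untreated and 0.011 for TALE against dCas9 (exact permutation p 0.1 and 0.3).

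Counts summed per contig were tested by edgeR's quasi-likelihood test over all 65 sequence names with enough counts, chromosomes included, of which 40 were contigs. No contig was called in any of the 3 contrasts at a Benjamini-Hochberg adjusted p under 0.05 (0 of 40 each). Of all 65 names, the contrast of TALE with untreated called 3.08%, that of dCas9 with untreated 3.08% and that of TALE with dCas9 0.0%. Contigs with an unadjusted p under 0.05 numbered 4, 3 and 3 of 40, beside 7, 7 and 5 of all 65 names (10.8%, 10.8% and 7.69%). Groups did not overlap for 7, 7 and 4 of the 40 contigs (17.5%, 17.5% and 10.0%), against 15.4%, 18.5% and 9.23% of all names. These shares are near the background and are no result about the contigs.

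The lowest p for both silenced groups was at chr1_gl000192_random, a contig of 547496 bp that matched NBPF genes, a family amplified on chromosome 1, and the cilia gene HYDIN. Its listed regions summed to 107, 107 and 104 CPM in untreated, 84.5, 81.3 and 93.7 CPM in TALE and 84.9, 91.7 and 85.9 CPM in dCas9 replicates, so that all 6 silenced values lay below the untreated ones. TALE cells had a log2 fold change of −0.29 (SE 0.0742, edgeR adjusted p 0.0550) and dCas9 cells one of −0.27 (SE 0.0740, adjusted p 0.0737), both against the same untreated libraries. TALE against dCas9 was −0.02 (edgeR adjusted p 0.970). The TALE difference was called without TALE replicate 3 (adjusted p 0.0252) and without dCas9 replicate 2 (0.0494), and its adjusted p ranged to 0.216 over the alternatives. The contig had 2433 counts over 32 regions and 92.3% repeated words. Its region with most counts, from 510489 to 513027, had means of 27.8, 23.6 and 19.7 CPM in untreated, TALE and dCas9 libraries.

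Ribosomal chrUn_gl000220 was next for TALE. Its regions summed to 7461, 7607 and 7703 CPM in untreated, 7975, 7883 and 7767 CPM in TALE and 7526, 7586 and 7741 CPM in dCas9 replicates. The TALE values were above all others, by a log2 fold change of 0.05 (SE 0.0164, edgeR adjusted p 0.129) against untreated and 0.05 (SE 0.0164, adjusted p 0.305) against dCas9. It was called for TALE against untreated by DESeq2 (adjusted p 0.0126) and by edgeR without TALE replicate 3 (0.0450), and the edgeR adjusted p ranged to 0.325 without TALE replicate 2. The coefficient of variation over the 9 libraries was 2.18% where counting error gives 0.686%.

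chrUn_gl000224, which matched no gene, had 100.15, 109.9 and 101.5 CPM in untreated, 116.4, 112.3 and 127.2 CPM in TALE and 103.9, 102.6 and 102.3 CPM in dCas9 replicates, with a log2 fold change of 0.21 (SE 0.0709, edgeR adjusted p 0.305) for TALE against dCas9. chrUn_gl000212, which carries the FAM230 matches, had 79.3, 78.9 and 95.6 CPM in untreated, 80.8, 78.5 and 72.0 CPM in TALE and 56.1, 70.6 and 74.7 CPM in dCas9 replicates, with −0.33 (SE 0.117, edgeR adjusted p 0.207) for dCas9 against untreated. In both, the differences did not pass the test.

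**Figure D3:**
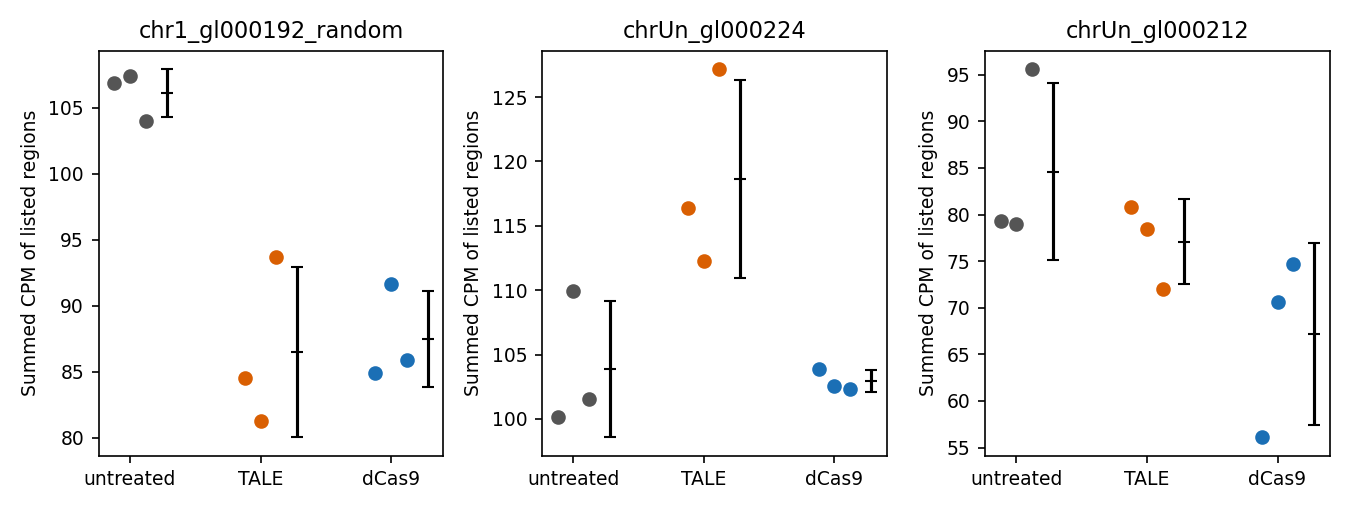
Summed CPM of the listed regions of chr1_gl000192_random, chrUn_gl000224 and chrUn_gl000212 in each library, with mean ± SD beside each group; axes do not start at 0. All 6 silenced values of chr1_gl000192_random lie below the untreated ones, with means of 86.5 and 87.5 against 106.1 CPM, and none of the 3 contigs passed the edgeR threshold.

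Single regions were tested in the fit of the whole table, in which 171 of the 586 contig regions had enough counts, 29.2% against 54.1% on chromosomes 1 to 22. Of these, 0 were called by edgeR in each of the 3 contrasts, where 0.0%, 0.000947% and 0.000947% of all 105652 tested regions were. Contig regions with an unadjusted edgeR p under 0.05 numbered 13, 14 and 11 of 171 in the contrasts of TALE and dCas9 with untreated and of TALE with dCas9. Over all 105652 regions they numbered 5011, 4958 and 4723 (4.74%, 4.69% and 4.47%), a lower share in each contrast. Groups did not overlap for 23, 23 and 21 contig regions (13.5%, 13.5% and 12.3%), against 10.2%, 10.3% and 9.97% of all regions. DESeq2 called 0 contig regions in each contrast as well.

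The region with the lowest p lay on chr7_gl000195_random, from 68468 to 68939. It had 22.4, 9.76 and 14.3 CPM in untreated, 26.3, 18.8 and 18.1 CPM in TALE and 33.2, 28.3 and 28.5 CPM in dCas9 replicates, and the dCas9 values did not overlap the others. The log2 fold change of dCas9 against untreated was 0.91 (SE 0.215, unadjusted p 5.3e-05, edgeR adjusted p 0.770). On chrUn_gl000224, the region from 57916 to 58026 had a mean of 6.20 ± 1.88 CPM in untreated, 5.40 ± 1.96 in TALE and 1.83 ± 0.538 in dCas9 libraries (SD, n = 3), with edgeR adjusted p of 0.908 for dCas9 against untreated and 1.00 for TALE against dCas9.

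For TALE against untreated the lowest were a region of chr4_gl000194_random (78684 to 78975), with 0, 5 and 8 counts in untreated and 16, 6 and 25 in TALE replicates, and the region without CpG on chr21_gl000210_random, with 23, 36 and 26 counts in untreated and 14, 6 and 18 in TALE replicates. Both had an edgeR adjusted p of 1.00. The largest ribosomal region, 114795 to 134093, was second for TALE against dCas9, at a log2 fold change of 0.06 (SE 0.0200, edgeR adjusted p 1.00). On data made with known changes, the same fit recovered 51% of regions changed 2-fold and 100% of those changed 4-fold, with 8 false calls. The changed regions were drawn from the whole table, above a higher count limit than that of the test. Recovery among the contig regions, some of which have fewer counts, was not measured and may be lower.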

How the data were processed

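MeDIP-seq of 9 libraries of K562 cells (3 untreated, 3 TALE, 3 dCas9) was analysed. The deposited tables hold raw counts per listed region (2529729 to 4492751 per library) and, for RNA, per gene. The deposited peak lists, 1 per library, give each peak a score, a fold enrichment and −log10 values of its p and q. Per the submitters' processing notes, BWA 0.7.5, Picard, MACS2 and bedtools were used on build hg19. The rule that set the regions and the treatment of reads with several matches were not given in the sources used here. Scores were not used. Positions in the deposited table count from 0 and are given from 1.

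The members and lists were chosen with earlier results of these data known. Contigs were matched to GRCh37 by accession (44 of 44, with 15 contigs of the reference having no listed region). The 31-base words of each region were counted in the primary assembly, and a word is called repeated if it occurs more than once there. Transcripts of GENCODE 44 on GRCh37 were matched with minimap2 2.31 (95% of bases) and RefSeq promoters of GRCh38.p14 with blastn 2.17.0 (95% identity over 90% of the length), and a 5.8S pseudogene at 80% identity. Peaks were overlapped with bedtools 2.31.1 by at least 1 base.

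Counts were tested with edgeR 4.0.16 (glmQLFit, glmQLFTest, TMM, filterByExpr with a minimum of 10 counts, Benjamini-Hochberg adjustment) in R 4.3.3, over all 105652 tested regions and over counts summed for 65 sequence names with at least 10 counts. DESeq2 1.42.0 was an alternative. CPM use TMM-scaled totals of the tested regions, while shares use all counts. Densities and shares were compared by exact permutation with scipy 1.17.1. Named contigs were the 10 with most counts, the 3 highest and 3 lowest in density with 5 or more regions, and the 2 with the lowest p per contrast, and named regions the 10 highest in CPM and the 2 lowest in p per contrast; other contigs were named after their values were seen. The fits were tested on simulated data. Alternatives were other scaling, no count filter, a replicate block, DESeq2, leaving out each library, the median of single regions, leaving out the contig with most counts and stricter peaks.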

Additional observations from a re-analysis of the deposited data

How the results depend on the processing

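The count density ratio of the contigs to chromosomes 1 to 22 turned with the summary used. On the log2 scale it was 1.12 for all contigs, 0.39 for placed random and 1.40 for unplaced contigs. With the median of the densities of single regions it was −1.90, −1.91 and −1.92. Without the contig with most counts (chrUn_gl000220, or chr4_gl000193_random for the placed ones) it was −0.13, −0.43 and −0.61. With regions under 50% repeated words, added after seeing the data, it kept its direction with and without that contig. Leaving out 1 library gave 1.11 to 1.12, 0.386 to 0.391 and 1.39 to 1.40.

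The log2 difference in the share of counts between dCas9 and untreated, 0.0022, was −0.0014 without chrUn_gl000220, −0.0029 without untreated replicate 1 and −0.0016 without dCas9 replicate 3, in a range of −0.0029 to 0.0070 without 1 library. Without 1 library the other share differences kept their sign: 0.0336 to 0.0463 for TALE against untreated, 0.0316 to 0.0441 for TALE against dCas9 and 0.0148 to 0.0252 for all silenced libraries. Without chrUn_gl000220 they were smaller, at 0.010, 0.011 and 0.0043.

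For TALE against untreated, 0 to 2 contigs were called without 1 library: chr1_gl000192_random and chrUn_gl000220 (2) without TALE replicate 3, and chr1_gl000192_random (1) without dCas9 replicate 2. DESeq2 called chrUn_gl000220 (1). The cause was not tested. The other contrasts, and single contig regions in all contrasts, had 0 calls under each alternative run. The share of contig regions with a peak in all 9 libraries fell from 33.8% to 13.7% with peaks of a −log10 q of at least 2. Asking a peak to cover 50% of a region left the numbers at 198 contig regions and 47497 on chromosomes 1 to 22. That rule changed neither number, so it is no check of the share.

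Between libraries of the same replicate number, correlations of deviations from the group means ran from −0.0047 to 0.0040 over 9 pairs. Counting error in single regions lowers such correlations, so they do not settle whether replicate numbers pair the libraries. With a replicate block, 0 contigs and 0 contig regions were called in each contrast, and the share difference of TALE against untreated was 0.039 with an exact sign-flip permutation p of 0.25, the smallest that 3 pairs allow. The comparisons planned for haplotype contigs were not run because 0 are listed. Of the 586 contig regions, 415 had too few counts to test.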
